A study of Arabidopsis thaliana with 44 samples.

Results

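H3K27me3, the trimethylation of lysine 27 on histone H3, was compared between shoots of the pkl-1 mutant and WT shoots of Arabidopsis thaliana. The comparison used every region of both deposited pkl-1 tables, 5607 regions in the first and 5478 in the second. These 11085 regions are part of 131416 in all region tables of the series. Reads in the pkl-1 library were set against reads in the WT library over each region.

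PKL encodes a CHD3-type chromatin remodeler, a protein that uses ATP to move or assemble nucleosomes. H3K27me3 is written by Polycomb repressive complex 2, whose catalytic subunits in plants include CLF, and it covers genes that are kept silent in a tissue or stage. In shoots it typically lies over floral, meristem and seed genes, and loss of PKL is known for seed traits that persist after germination.

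The plants were 3-week-old shoots grown in soil under 16 h of light. Groups were pkl-1 with 2 anti-H3K27me3 libraries and WT with 2 by the labels, and the series text calls the ChIP replicates biological. The labels give no other allele, agent or background for either group, nor the kind of lesion in pkl-1. The WT column of both tables was 1 library: the WT counts were equal in 3942 of 3942 regions with the same boundaries in both tables, and also in all 6 H3K27me3 tables of the series wherever boundaries matched. WT therefore entered as 1 sample here, and which labelled WT library it is, or whether it is a pool, is not given in the sources used here.

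Read totals were 19.2 M and 10.9 M for pkl-1 and 13.6 M for WT. RNA levels are given in CPM, read counts scaled to the library total multiplied by a TMM factor, which sets the bulk of genes to no change. In RNA-seq of both genotypes, the PKL transcript stood at 28.8, 29.2 and 35.1 CPM in pkl-1, against 17.6, 15.2 and 17.7 CPM in WT. Transcript level therefore gave no check of the pkl-1 label. Of the leaf and photosynthesis markers 0 of 12 lay in H3K27me3 regions, and of the housekeeping genes 0 of 13. The root marker genes lay in regions in 8 of 9 cases and the anther and pollen markers in 2 of 8. As a check that genes were placed correctly, 31 of 34 floral and meristem genes lay in regions, against 6 and 4 after the genes were shifted by 20 kb either way.

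H3K27me3 reads were fewer at nearly all marked regions of pkl-1 shoots relative to library total. Regions held 40.02% and 36.2% of the reads of the pkl-1 libraries, against 65.6% and 65.2% of the reads of the WT library over the same tables. The pkl-1 shares were 0.610 and 0.556 of the WT share. For the histone variant H2A.Z, the shares in regions were 58.4% and 65.8% in pkl-1, against 57.4% and 66.2% in WT, so the lower share in pkl-1 was seen with anti-H3K27me3 and not in both H2A.Z pairs. The exact permutation test of 2 pkl-1 libraries against 1 WT library cannot go below a two-sided p of 0.333, and none was used.

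**Figure D1:**
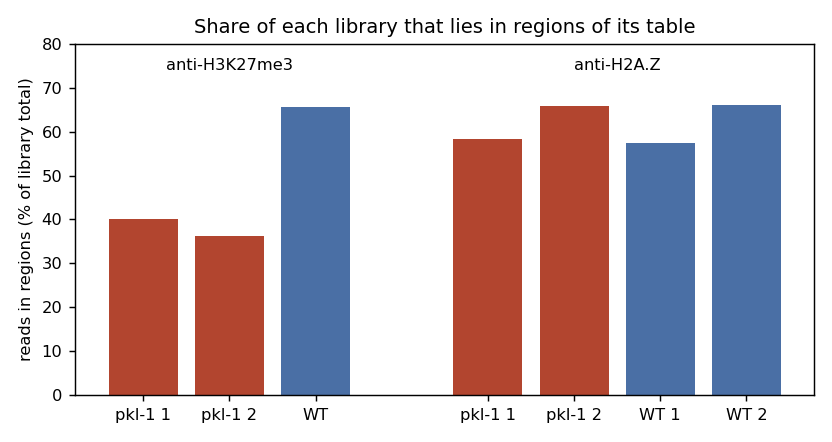
Share of each library's reads that lies in the regions of its table (y axis, percent of the library total), 1 bar per library, for anti-H3K27me3 (left) and anti-H2A.Z (right). The pkl-1 bars stand at 40.02% and 36.2% against 65.6% for WT in H3K27me3, while the H2A.Z bars of both genotypes lie between 57.4% and 66.2%.

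Reads outside regions made up 59.98% and 63.8% of the pkl-1 libraries, against 34.4% and 34.8% of the WT library. Less of the mark at all regions and more background reads in the pkl-1 immunoprecipitations cannot be told apart in these tables. In these shoots, fewer cells with a marked region and less of the mark per cell cannot be told apart either. The share in regions was also below the WT share in the other mutants, at 46.8% and 53.3% in clf-28 and 55.9% and 58.0% in pie1-5. Those comparisons use the same WT library.

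Regions of both tables were paired where they were each other's best match, which gave 5337 paired regions, 73.9% of them with the same boundaries. The log2 ratio of RPM (reads scaled to the library total), pkl-1 over WT, was below 0 in both tables in 4955 paired regions (92.8%). It was above 0 in both tables in 81 regions (1.52%) and split in 301. Over all regions of a table the median log2 ratio was -0.67 (quartiles -0.90 to -0.39) for pkl-1 1 and -0.91 (-1.11 to -0.67) for pkl-1 2. The ratio was thus lower in the second pkl-1 library, and the density of pkl-1 2 was below that of pkl-1 1 by a median of 0.20 on the log2 scale.

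**Figure D2:**
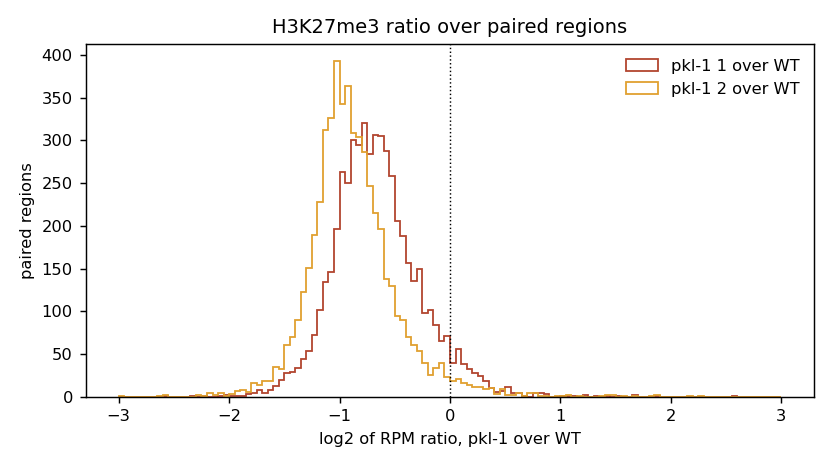
Number of paired regions (y axis) by log2 RPM ratio of pkl-1 over WT (x axis), 1 outline for each pkl-1 library against the same WT library; values beyond 3 either way are drawn in the end bins. Both distributions are single humps centred below 0, with the second library further to the left.

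A fit over the paired regions gave a median log2 ratio of -0.79 (quartiles -0.98 to -0.57), that is 57.7% of the WT density. The quasi-likelihood test of edgeR was run on library totals and adjusted by Benjamini-Hochberg. It called 2711 of 5337 regions lower in pkl-1 (50.8%) and 11 higher (0.206%), at an adjusted p below 0.05, with 3171 and 16 at an unadjusted p below 0.05. The fit has 1 residual degree of freedom among samples and assumes that the lone WT library varies as the pkl-1 libraries do. Scaling by TMM factors, which sets the bulk of regions to no change, moved the median by 0.79 and left 0 lower regions and 1 higher one (0.0187%); at an unadjusted p below 0.05 it had 249 higher and 108 lower. DESeq2 called 20 higher (0.375%) and 0 lower, with 199 and 37 at an unadjusted p below 0.05. The size factors of DESeq2, taken from the regions, also set the bulk of regions to no change. The words lower and higher below refer to library totals, and "relative to the median" gives a region's log2 ratio minus the median of all paired regions. With TMM factors, ratios above the median turn positive, among them that of PHE1 (0.40).

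The fall was of similar size over most of the marked genome. Fitted ratios of 4645 regions (87.0%) lay within 0.5 of the median on the log2 scale, 76 lay more than 1 above it and 9 more than 1 below it. Median ratios of the 5 chromosomes ran between -0.77 and -0.81. For comparison, the SD of pkl-1 2 over pkl-1 1 across regions was 0.36.

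Longer regions had lower ratios. Regions under 1 kb had median log2 ratios of -0.59 and -0.76 in the tables of pkl-1 1 and pkl-1 2, and those of 8 kb or more had -0.82 and -0.94. The quartiles of the fitted ratio narrowed, running from -0.98 to -0.31 under 1 kb and from -0.99 to -0.74 at 8 kb or more. The called share went with length and read number: 13.7% of 364 regions under 1 kb were lower, against 96.4% of 636 regions of 8 kb or more. Among regions of middle read density (16.0 to 19.7 RPM per kb on average over the libraries) the fitted median was -0.37 under 1 kb (71 regions) and -0.84 at 8 kb or more (120 regions).

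**Figure D3:**
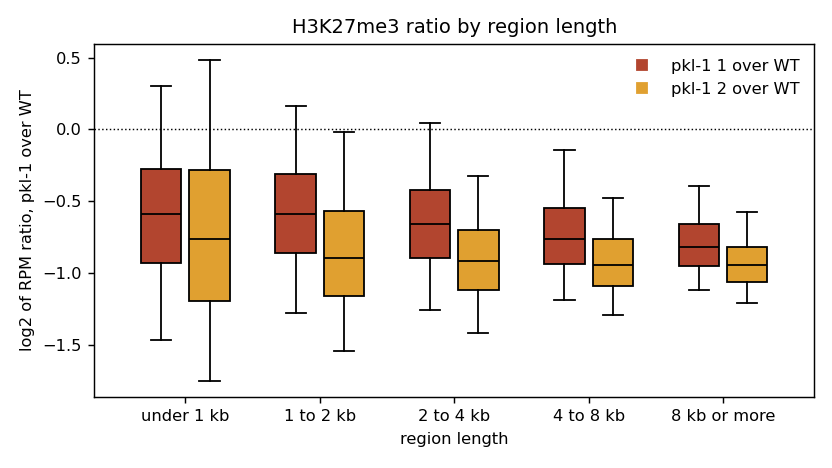
Log2 RPM ratio of pkl-1 over WT (y axis) for paired regions in 5 length classes (x axis), with a box for each pkl-1 library; boxes span the quartiles, lines the medians, and whiskers the 5th to 95th percentiles. The median is lower and the spread narrower in longer regions, in both libraries.

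Regions that cover a protein-coding gene had a fitted median of -0.78 (3874 regions) and regions that cover no gene -0.85 (1147 regions). A gene was placed in a region where the region covered at least 50% of it. In that way 7650 of 37887 nuclear genes (20.2%) lay in paired regions, among them 5987 of 27432 protein-coding genes (21.8%), 122 of 326 miRNA genes (37.4%), 4.67% of 3917 pseudogenes and 32.1% of 926 annotated as transcribed pseudogenes. Of the paired regions, 1463 covered 0 protein-coding genes, 2670 covered 1, 768 covered 2 and 436 covered 3 or more. Genes of one region share its ratio, as in the regions of AP1 (5 protein-coding genes), LEC2 (4) and PHE1 (8).

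The genes below come from lists of developmental and stress pathways. All 14 floral identity genes lay in H3K27me3 regions, and all 14 of those regions were lower in pkl-1, against 50.8% of all paired regions. Their median fitted ratio was -0.98, against -0.79 for all, and 13 of the 14 lay below the median of all. Their regions were also longer, with a median of 5.6 kb against 2.8 kb for all, and 79.1% of all regions of 4 to 8 kb were called lower. The counts of this and the following lists are to be read beside the share of all regions of like length, 45.5% at 2 to 4 kb, 79.1% at 4 to 8 kb and 96.4% at 8 kb or more. AG, the MADS-box gene of stamens and carpels, lies in chr4:10378601-10389400 (build TAIR10 throughout). Its region had 23.4 and 20.4 RPM per kb in pkl-1, against 49.0 in WT, 2.24-fold lower (log2 ratio -1.16 ± 0.17 SE, adjusted p = 5.58e-10). Both pkl-1 libraries were below WT, as they were for each gene of this paragraph. SEP3, a MADS-box cofactor of all floral organs, had 31.4 and 26.97 RPM per kb in pkl-1, against 57.6 in WT (-0.98 ± 0.19, adjusted p = 2.74e-06). AP1, which sets floral meristem identity, fell by 1.04 ± 0.15 on the log2 scale, STK, an ovule gene, by 1.07 ± 0.16, and SHP2, a carpel gene, by 1.03 ± 0.23. FUL, which acts in fruit and in flowering, was at the weak end with -0.71 (adjusted p = 0.00463).

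**Figure D4:**
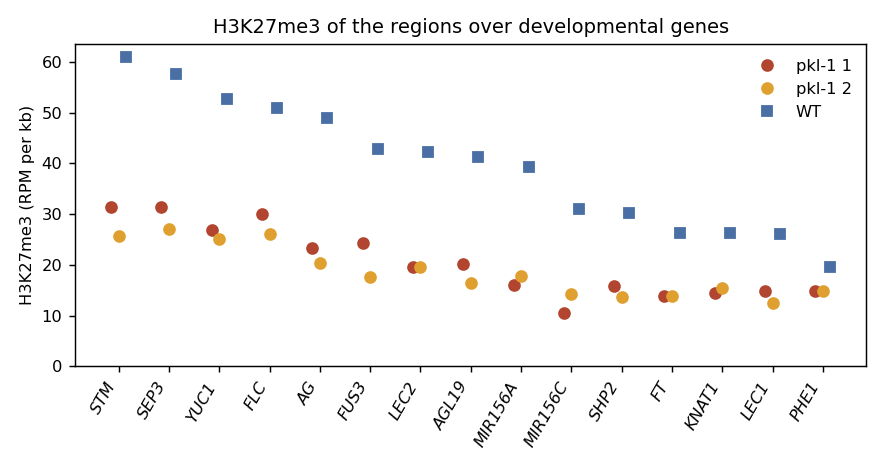
H3K27me3 density (y axis, RPM per kb) of the regions over 15 developmental genes (x axis, ordered by the WT value), with circles for the pkl-1 libraries and squares for the WT library. Each circle lies below its square, and the gap is smallest at PHE1.

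Among flowering time genes, 12 of 21 lay in regions and 9 of those regions were lower, with a median of -0.89 and a median length of 4.1 kb. FLC, the repressor of flowering that vernalization silences, had 29.997 and 26.1 RPM per kb in pkl-1, against 51.0 in WT (-0.86 ± 0.16, adjusted p = 1.04e-06). FT, which encodes the mobile flowering signal, had 13.9 and 14.0 RPM per kb in pkl-1, against 26.2 in WT (-0.92 ± 0.25, adjusted p = 0.00153). Both genes lay close to the median of all regions, at -0.07 and -0.12 relative to it, and in pkl-1 2 alone they lay on its other side, at 0.03 and 0.01. The largest fall of the list was at SMZ, an AP2-type floral repressor, with a log2 ratio of -1.38 (adjusted p = 0.00361). TFL1, which keeps the shoot apex indeterminate, fell by 1.15 ± 0.22 and AGL19, a MADS-box activator of flowering, by 1.17 ± 0.26 on the log2 scale. MFT, listed as E12A11 and known from seed germination, fell by 1.12 ± 0.27. SOC1 (-0.74), SPL4 (-0.49) and AGL24 (-0.38) did not pass the test.

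Of the KNOX, meristem and boundary genes, 17 of 20 lay in regions and all 17 regions were lower, with a median of -0.99 and a median length of 10.2 kb. STM, the homeobox gene that keeps the shoot meristem undifferentiated, lies in chr1:23058401-23071800. It had 31.5 and 25.6 RPM per kb in pkl-1, against 61.0 in WT (-1.09 ± 0.15, adjusted p = 1.89e-11). KNAT1, its relative in stem development, had 14.4 and 15.5 RPM per kb in pkl-1, against 26.2 in WT (-0.81 ± 0.17, adjusted p = 1.3e-05). STM was the densest in WT of the 15 genes plotted, and KNAT1 was among the sparsest. CLV3, the peptide gene that limits the stem cell pool, fell by 1.09 ± 0.17, and CUC2, which separates organs, by 0.99 ± 0.16 on the log2 scale. AS2, a leaf polarity gene, fell by 0.95 ± 0.14.

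Embryo and seed genes numbered 15 of 17 in regions, in 12 regions since SESA1 to SESA4 share 1, and 10 of the 12 were lower (median length 6.7 kb). Their median of -0.75 was close to that of all regions, and 6 of the 12 lay below the median of all. LEC2, a B3 factor of embryo identity, lies in a region of 22.6 kb at chr1:9894801-9917400 and had 19.6 and 19.6 RPM per kb in pkl-1, against 42.3 in WT (-1.11 ± 0.14, adjusted p = 2.05e-12). FUS3 had 24.4 and 17.6 RPM per kb in pkl-1, against 42.9 in WT (-1.03 ± 0.21, adjusted p = 8.19e-06), and ABI3 fell by 1.06 ± 0.16 on the log2 scale. LEC1, the NF-Y subunit of embryo identity, had 14.8 and 12.4 RPM per kb in pkl-1, against 26.1 in WT (-0.94 ± 0.22, adjusted p = 0.000179). Its region was 10.8 kb long in the first table and 6.60 kb in the second. Among storage protein genes, CRA1 (-0.67), CRU2 (-0.64) and the region of SESA1 to SESA4 (-0.66) were lower by less than the median of all regions, and CRU3 (-0.87) and SESA5 (-0.83) by more. BBM (-0.65), an AP2-type embryo factor, was lower too. OLEO1 (-0.34, adjusted p = 0.403), for an oil body protein, and AGL15 (-0.56) did not pass.

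Imprinted and endosperm genes lay in regions in 10 of 13 cases, and 5 of the 10 regions were lower (median length 4.9 kb). That share was close to the 50.8% of all regions and below the 79.1% of all regions of 4 to 8 kb. PHE1, a MADS-box gene expressed from the paternal copy in endosperm, lies in a region of 21.0 kb at chr1:24265001-24286000 together with CYP96A3 and UBQ13. It had 14.9 and 14.9 RPM per kb in pkl-1, against 19.6 in WT (-0.40 ± 0.17, adjusted p = 0.0355), which is 0.39 above the median of all regions and the weakest fall of the 15 genes plotted. Its neighbour and close paralog PHE2, listed as AGL38, lies in another region at chr1:24254201-24259600. That region had 10.8 and 11.3 RPM per kb in pkl-1, against 19.6 in WT (-0.83 ± 0.31, adjusted p = 0.0189). MEA, the Polycomb methyltransferase of the endosperm, fell by 0.99 ± 0.20 on the log2 scale and HDG3 by 0.89 ± 0.18.

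Of 20 Polycomb genes 3 lay inside regions, MEA, FIS2 and VIN3, beside 21.8% of all protein-coding genes. CLF, SWN, EMF2 and FIE did not. VIN3, the PHD-finger gene that cold induces, lies beside AIL5 in chr5:23247201-23260200 and fell by 1.16 ± 0.16 on the log2 scale (adjusted p = 1.41e-10). Of 14 chromatin remodeler and H2A.Z genes 1 lay in a region, the PKL relative PKR2, with 21.9 and 23.4 RPM per kb in pkl-1, against 43.1 in WT (-0.93 ± 0.18, adjusted p = 4.2e-06). PKL and PIE1 lay in none.

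Loci of miR156 and miR172, the miRNA pair that times the juvenile and adult phases, lay in regions in 10 of 13 cases, and 9 of the 10 regions were lower with a median of -1.01 and a median length of 6.4 kb. MIR156A had 16.0 and 17.9 RPM per kb in pkl-1, against 39.2 in WT (-1.21 ± 0.20, adjusted p = 2.95e-08), in a region it shares with CIPK16. MIR156C had 10.5 and 14.4 RPM per kb in pkl-1, against 31.1 in WT (-1.32 ± 0.31, adjusted p = 0.000158). At both, pkl-1 1 was the lower of the pkl-1 libraries. MIR156B fell by 1.27 ± 0.20 in a region shared with LRL2, MIR156E by 1.25 and MIR172C, in a region shared with GPAT5, by 1.11 ± 0.20 on the log2 scale. MIR156F (-0.82) and MIR172B (-0.80) lay at the median of all regions, and MIR156D (-0.78) did not pass the test.

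For auxin synthesis 10 of 14 genes lay in regions (median length 5.0 kb) and 7 were lower, near the share of all regions of 4 to 8 kb (79.1%). Among them was the flavin monooxygenase gene YUC1, with 26.97 and 25.02 RPM per kb in pkl-1, against 52.6 in WT (-1.02 ± 0.21, adjusted p = 2.4e-05). For gibberellin 10 of 28 genes lay in regions (median length 7.5 kb) and 8 were lower, also near that share, with a median of -0.97. GA2OX4, whose enzyme inactivates gibberellin, had 15.5 and 13.2 RPM per kb in pkl-1, against 35.1 in WT (-1.29 ± 0.18, adjusted p = 3.01e-10). GA2OX7 fell by 1.06 ± 0.20 and the synthesis gene GA1 by 0.99 ± 0.21 on the log2 scale, while GA3OX4 (-0.13, adjusted p = 0.769) did not pass.

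Salicylic acid defence genes lay in regions in 7 of 21 cases and 5 of those regions were lower, with a median of -0.87 and a median length of 4.0 kb. PR1, a secreted antimicrobial protein gene, had 14.3 and 12.2 RPM per kb in pkl-1, against 26.9 in WT (-1.02 ± 0.27, adjusted p = 0.00103). FMO1, ALD1 and WRKY38 had log2 ratios of -0.85, -0.96 and -0.87, each called lower. PR5 stood at 0.05 (adjusted p = 0.916), 0.84 above the median of all regions. Regions over root markers were lower in 8 of 8 cases with a median of -0.96. Their median length was 11.5 kb, and 96.4% of all regions of 8 kb or more were lower. One example is the root stem cell factor PLT1 (-0.98 ± 0.14). Of the anther and pollen markers 1 of 2 was lower, MS1 with -0.65 ± 0.18.

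Apart from one on chromosome 2 that is described with the higher regions, the longest regions fell by about the median. The region of 85.0 kb at chr4:8714801-8799800, over UGT71B5, CSLB and CYP702A genes, had 21.1 and 19.6 RPM per kb in pkl-1, against 36.4 in WT (-0.84 ± 0.10). The next, of 56.6 kb on chromosome 3 over AT3G21900 and its neighbours, fell by 0.81 ± 0.10 on the log2 scale. The region over the triterpene synthesis genes CYP71A16 and MRN1 fell by 0.88 ± 0.12 and that over UFO, a floral F-box gene, by 1.00 ± 0.13. Of the densest regions in WT, NAC105 (-0.78 ± 0.23) and the region of AT3G49440 to AT3G49460 (-0.89 ± 0.18) fell by about the median, AT5G54700 (-0.54 ± 0.21) fell by less, and the region touching AT4G06597 (0.48 ± 0.28, adjusted p = 0.131) split between the pkl-1 libraries with 183 and 95.6 RPM per kb, against 99.97 in WT.

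The largest falls were in short regions, mostly without genes. Of the 9 regions more than 1 below the median, 7 covered no gene, against 1147 of all 5337 paired regions. Their median length was 800 bp, against 2800 bp for all. The 76 regions more than 1 above the median were short too, with a median of 1200 bp, and 33 covered no gene. Ratios also spread most widely in regions under 1 kb, so short length is not particular to the falls. The region chr1:13603001-13605800 covers no gene and held 271 and 144 reads in pkl-1, against 803 in WT, 4.32-fold lower (-2.11 ± 0.44, adjusted p = 2.11e-05). AT5G37280 lies in a region with 6.81 and 9.22 RPM per kb in pkl-1, against 34.3 in WT (-2.10 ± 0.42, adjusted p = 9.91e-06). AT2G09255 lies in the longest region of the 10 largest falls, 5.6 kb at chr2:17243201-17248800, which had 9.57 and 16.3 RPM per kb in pkl-1, against 44.2 in WT (-1.78 ± 0.25, adjusted p = 1.06e-10). In all 3, both pkl-1 libraries were far below WT. At the same places the log2 ratios against this WT library were -2.42 and -3.55 (chr1 region), -0.82 and -2.68 (AT5G37280) and -2.20 and -3.55 (AT2G09255) in clf-28. They were -1.69 and -2.38, -0.13 and -1.82, and -0.38 and -2.05 in pie1-5. These regions were chosen for a low ratio over the WT library that those comparisons share. A high WT count alone therefore lowers the clf-28 and pie1-5 ratios too, and nothing is read from them. The other 7 of the 10 regions, of which 1 covers a gene (AT4G09945), were between -1.80 and -2.06.

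Of the 11 higher regions, 4 had the same boundaries in both tables. Where boundaries differ, WT enters with the mean of its counts and lengths, so the fit can part from the ratio of each table. The region chr2:19697601-19698200 lies past the last annotated gene of chromosome 2 and covers none. It held 2643 and 1973 reads in pkl-1, against 516 in WT, 4.19-fold higher (2.07 ± 0.26, adjusted p = 5.68e-12), and it was the single call under TMM scaling (adjusted p = 0.00985). AT5G31909 had 106 and 156 RPM per kb in pkl-1, against 52.6 in WT (1.31 ± 0.50, adjusted p = 0.0221), in a single window of 200 bp. AT4G33180 had 18.6 and 15.6 RPM per kb in pkl-1, against 6.99 in WT (1.29 ± 0.53, adjusted p = 0.0329). AT4G01985 lies in one of the densest regions, with 92.2 and 146 RPM per kb in pkl-1, against 93.2 in WT (0.35 ± 0.15, adjusted p = 0.0359), so only pkl-1 2 was above WT there.

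The largest higher region was on chromosome 2, 250.4 kb long in the first table and 270.8 kb in the second, over 171 annotated genes, in the part of the chromosome known to carry a copy of the mitochondrial genome. It held 0.702% and 1.20% of all pkl-1 reads, against 0.299% of WT reads (0.322% over the bounds of the second table). The fitted log2 ratio was 1.60 ± 0.07, but the tables gave 1.23 and 1.90, which lie further apart than that SE covers. The region was called higher on library totals, and not with TMM factors or DESeq2. Of its genes, 113 were tested for RNA, of which edgeR and DESeq2 called 0 higher and 0 lower (1 and 2 at an unadjusted p below 0.05 in edgeR), with a median log2 fold change of -0.03. Ratios against the same WT library were also above 0 in clf-28 (1.33 and 3.35) and pie1-5 (0.97 and 1.00). As that library is shared, a low WT count alone raises those ratios too. Reads that could come from the mitochondrial genome were not separated, and their part in the pkl-1 ratio was not tested. Without this region the shares in regions were 39.3% and 35.0% in pkl-1, against 65.3% in WT.

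The other higher regions had different boundaries in both tables. A region touching IAA10, an auxin response repressor, had 22.3 and 10.8 RPM per kb in pkl-1, against 3.83 in WT (2.12 ± 0.55, adjusted p = 0.000633). One at chr5:20629801-20630800 without a gene had 15.7 and 20.9 RPM per kb in pkl-1, against 4.68 in WT (1.96 ± 0.56, adjusted p = 0.00204). Further ones touched AT2G07080 (1.92 ± 0.59), covered AT1G33220 (1.35 ± 0.46), touched HB31 (1.31 ± 0.52) and touched AGO3, an Argonaute gene. The AGO3 region was 3.80 kb in the first table and 1.00 kb in the second; its log2 ratios in the tables, 0.09 and 0.30, were both below the fitted 0.67. A window at chr2:3092801-3093000, the remaining one of the 10 largest rises, had 31.5 and 81.2 RPM per kb in pkl-1, against 25.4 in WT, and did not pass (1.13 ± 0.57, adjusted p = 0.0792).

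RNA of genes in H3K27me3 regions was low in WT, and changes in either direction were seen. Of 7134 such genes with a row in the RNA-seq counts, 77.7% were below 0.5 CPM in WT (36.2% of nuclear genes outside regions), and 2267 (31.8%) were tested. Among these, 72 were higher in pkl-1 (3.18%, against a background of 1.45% of all 20375 genes tested) and 129 were lower (5.69%, against 2.58%), with edgeR and 3 libraries per genotype. DESeq2 called 120 higher and 190 lower. Genes tested inside regions had a median log2 fold change of -0.06 with quartiles of -0.68 and 0.62. Leaving out 1 library brought the counts to between 35 and 57 higher and between 71 and 109 lower; without WT 3 they were 35 and 78, without WT 1 40 and 109, and without pkl-1 1, pkl-1 2 or pkl-1 3 they were 40 and 71, 45 and 82, and 46 and 74.

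RNA calls were also counted by the size of the H3K27me3 fall. In regions below the lower quartile of the fitted ratio, 22 of 525 genes tested were higher (4.19%) and 21 lower (4.00%). In regions above the upper quartile, 10 of 585 were higher (1.71%) and 45 lower (7.69%). The longest region, on chromosome 2, gave 113 of these 585 genes, with 0 called either way. Regions with a gene higher in RNA had a median log2 ratio of -0.89, and 45 of 70 lay below the median of all regions (64.3%). Regions with a gene lower in RNA had a median of -0.72, and 49 of 127 lay below it (38.6%). Regions with tested genes that did not pass had -0.81 (883 of 1707, 51.7%). The RNA libraries are separate from the ChIP libraries, and the difference between these groups was not tested.

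**Figure D5:**
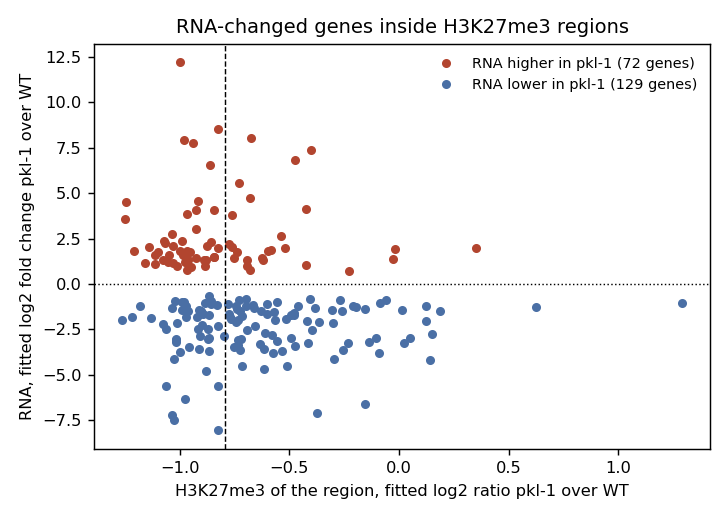
Genes inside H3K27me3 regions whose RNA was called in pkl-1, by the fitted log2 H3K27me3 ratio of their region (x axis) and fitted log2 RNA fold change (y axis), both pkl-1 over WT; the dashed line is the median of all paired regions. Red points are the 72 genes higher and blue points the 129 genes lower in RNA, and fold changes of genes with no reads in 1 genotype depend on the prior count.

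PHE1 stood at 42.3, 36.9 and 36.1 CPM in pkl-1, against 0.224, 0.401 and 0 CPM in WT (adjusted p = 1.05e-05 in edgeR's test), beside the weak fall of its region. PHE2 (AGL38) had 124 reads in all over the pkl-1 libraries, against 0 in WT, at least 38.7-fold higher against a floor of 3 reads over the WT libraries (adjusted p = 0.0033). Both genes have similar sequences, so reads could be shared between them. The levels of both were above every WT library in 3 of 3 pkl-1 libraries. Both genes were called in RNA, so such separation largely follows from the call. How many of all tested genes separate in this way was not counted.

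Other genes were higher in RNA while their regions were lower. AT4G02825 had 223, 185 and 209 CPM in pkl-1, against 10.5, 8.49 and 7.71 CPM in WT, in a region with 5.72 and 6.70 RPM per kb in pkl-1, against 14.7 in WT. SQE6, of the squalene epoxidase family, had 29.6, 29.1 and 32.7 CPM in pkl-1, against 6.91, 10.5 and 5.29 CPM in WT, with a region ratio of -0.76. AT1G27030 was 4.16-fold, AT1G78450 4.70-fold and AT4G13495 2.21-fold higher, with region ratios of -1.14, -1.07 and -1.16. In each of these, all pkl-1 libraries lay above all WT libraries. These genes were named for their small adjusted p in RNA, so such separation largely follows from that choice. The share of all tested genes that separate was not counted.

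Further genes were lower in RNA while their regions were lower too. PCR1, a cadmium resistance gene, had 0, 0.188 and 0 CPM in pkl-1, against 4.93, 8.46 and 5.51 CPM in WT, with a region ratio of -0.98. PR1 had 3.07, 14.0 and 2.21 CPM in pkl-1, against 60.3, 70.6 and 34.7 CPM in WT, beside its ratio of -1.02. FT had 0.176, 0.156 and 0.152 CPM in pkl-1, against 0.859, 0.710 and 1.19 CPM in WT (5.52-fold lower, adjusted p = 0.0324). The groups did not overlap at any of these 3. All 3 were called in RNA, so such separation largely follows from the call, and the share over all tested genes was not counted. AT3G22235, GLR2.7 (a glutamate receptor-like gene), CHI (a chitinase gene), HR4 and AT2G18690 were 11.1-fold, 3.65-fold, 8.39-fold, 3.26-fold and 12.1-fold lower in RNA, with region ratios of -0.75, -1.13, -0.73, -0.87 and -0.62.

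At the higher regions, AT4G33180 had 3.25, 2.66 and 3.69 CPM in pkl-1, against 6.24, 4.51 and 8.99 CPM in WT (adjusted p = 0.0391). AT4G01985 had 6.67, 3.47 and 1.94 CPM in pkl-1, against 0.971, 0.896 and 1.19 CPM in WT (adjusted p = 0.0451). The mark was above WT in both pkl-1 libraries at the first, where RNA was lower, and in pkl-1 2 alone at the second, where RNA was higher. The call of the second region was not kept with TMM factors (adjusted p = 0.531) or DESeq2 (0.999). Of the floral identity genes, 10 were tested for RNA and edgeR called 0, with 1 lower at an unadjusted p below 0.05 and 1 lower by DESeq2. Of the KNOX, meristem and boundary genes 13 were tested and 0 were called by either tool, with 1 higher and 1 lower at an unadjusted p below 0.05 in edgeR. The lists were chosen with earlier results of these data known, which alone can raise the share of called members. In the salicylic acid list 9 of 21 were lower in RNA, against 2.58% of all genes tested. Of these 9, PR1, PR2 (region ratio -0.91) and PR5 lay in regions, and 6 (WRKY70, WRKY54, SARD1, CBP60G, PAD4 and PBS3) lay in none. Of the 9 root markers 3 were tested for RNA. PYK10 was higher (log2 fold change 0.96, adjusted p = 0.00987 in edgeR) with a region ratio of -1.01, while SHR (-0.50) and SCR (0.07) did not pass.

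H2A.Z calls depended on the fit. Of 9861 paired H2A.Z regions, 0 were higher (0%) and 1 was lower (0.0101%) in pkl-1 by edgeR, and 158 and 194 had an unadjusted p below 0.05. H2A.Z regions at least 50% inside H3K27me3 regions had a median log2 ratio of -0.02 (3741 regions), against 0.01 for the others (6120). The lower region covers AT4G10690 and AT4G10695, outside H3K27me3, and had 284 and 232 reads in pkl-1, against 1537 and 1567 in WT (-2.12, adjusted p = 0.0153). Without either pkl-1 library in turn it did not pass. With the replicate number as a block, 73 regions were higher and 56 lower. Same-numbered libraries deviated together (r = 0.67), but they were counted over the same region bounds. Only 2816 regions had equal boundaries for both numbers, beside 9861 paired ones, so shared bounds alone can make such libraries deviate together. With 2 libraries a group, r does not show that the numbers pair the libraries. H3K27me3 regions that overlap a paired H2A.Z region, 4284 (80.3%), had a median H3K27me3 ratio of -0.77, and the 1053 without one had -0.92. The regions without H2A.Z were shorter, with a median of 2000 bp against 3200 bp, and sparser in WT, at 19.6 RPM per kb against 25.6.

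In the authors' deposited tables, at an FDR of 0.05 and a fold of 1.5, the first table has 3329 lower regions (59.4%) and 160 higher (2.85%) and the second 4458 lower (81.4%) and 98 higher (1.79%). These tests set 1 pkl-1 library against 1 WT library, so they carry no spread between replicates. Of the paired regions called lower, 3095 were called in both of the authors' deposited tables, 93.1% of those of the first and 70.0% of those of the second. Of those called higher, 13 were called in both, 44.8% and 39.4%.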

How the data were processed

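Per the submitters' processing notes, Trimmomatic, Bowtie2, SICER, bedtools, deepTools and edgeR were used with the build TAIR10; no version or setting is stated there. Per the file headers, each deposited table gives, for regions made of 200 bp windows, the read counts and RPM of 1 mutant and 1 WT library, their ratio (fold), p-values and an FDR. RNA-seq was deposited by the authors as raw read counts per gene. Library totals were recovered from counts and RPM. Libraries of anti-H3 and input were not used here.

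Each region of one pkl-1 table was matched to one of the other where both were mutual best overlaps, covering at least 50% of the shorter region. Counts were fitted with edgeR 4.0.16 (R 4.3.3) with library total and region length as offset, 1 WT sample, the quasi-likelihood test and Benjamini-Hochberg adjustment over all paired regions; DESeq2 1.42.0 was an alternative. WT counts of regions with different boundaries were averaged. H2A.Z regions were fitted alike with 2 WT libraries. RNA counts were fitted over 12 libraries with TMM factors and the default low-count filter. SE are derived from the F statistic. With 1 sample in WT, the spread behind the H3K27me3 p-values comes from the 2 pkl-1 libraries alone. It is shared over all paired regions, so an SE need not follow the gap between those libraries at a single region. LEC2 had table ratios of -1.11 and -1.11 with an SE of 0.14. The 250.4 kb region of chromosome 2 had 1.23 and 1.90 with an SE of 0.07. The scripts were tested on simulated data. RNA numbers do not pair the samples.

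Gene names and placement came from a RefSeq table of TAIR10.1, whose coordinates are not printed. Named were the 10 largest rises and falls among regions with at least 100 reads (7 falls as a range), fixed developmental genes, up to 4 called members per list, the 5 longest and 5 densest regions, and up to 6 genes per combination of RNA and region call; PR5, SMZ, FUL, other members given by 1 value and the remaining higher regions were named after their values were seen. Members and lists were chosen with earlier results of these data known. Whether counting used strand is not stated, so overlapping genes and close copies may share reads.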

Additional observations from a re-analysis of the deposited data

How the results depend on the processing

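The direction of the H3K27me3 result rests on scaling by library totals. Lower regions numbered 2711; TMM factors and DESeq2 gave 0 each, and an adjusted p of 0.01 gave 1717. Higher regions numbered 11; TMM factors gave 1, DESeq2 20, pairing at 80% of the longer region 7, an adjusted p of 0.01 6, and regions with the same boundaries in both tables, chosen after seeing the data, 5. Median log2 ratios over all regions, unpaired ones included (mean of both tables), were 0.00568 with TMM factors against -0.79 with library totals. By length they were 0.25 against -0.55 under 1 kb, 0.0863 against -0.71 at 1 to 2 kb, 0.0155 against -0.78 at 2 to 4 kb, -0.0525 against -0.85 at 4 to 8 kb and -0.0816 against -0.88 at 8 kb or more; the order of the classes held under both. A filter of 100 reads left both counts within 1.5 times. Leaving out 1 pkl-1 library gave the share in regions as 36.2% or 40.02%. At an FDR of 0.01 and a fold of 2, the authors' deposited tables have 79 higher and 911 lower regions in the first and 57 and 2134 in the second.

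RNA calls in regions depended on the filter and the tool: 72 higher became 120 by DESeq2 and 141 without a filter on low counts, and 129 lower became 252 without it. Leaving out 1 library gave 35 to 57 higher and 71 to 109 lower. The replicate block gave 68 higher and 119 lower in RNA, where same-numbered libraries had correlations of -0.04, 0.01 and -0.00. For H2A.Z the block gave 73 higher and 56 lower regions in place of 0 and 1. The correlation was 0.67, with 2 libraries a group and with same-numbered libraries counted over the same region bounds. Leaving out 1 H2A.Z library gave 0 to 1 lower. No paired analysis was possible for H3K27me3 because WT is 1 library; for the same reason leaving out a pkl-1 library gives values without a test, and WT could not be left out. Tables hold no organelle chromosomes, so leaving those out was not run. The cause of these changes was not tested. Single regions were taken relative to the median, and a move was counted if above the spread between the pkl-1 libraries. Of 90 regions, 1 moved with TMM factors and 1 with DESeq2. The stricter pairing kept fewer of the 90, with 13 moved and 67 not, and so did the same boundaries, with 13 and 50. Of all 90, 14 and 11 moved without pkl-1 1 and pkl-1 2. The side of the median changed for 12 without pkl-1 1 and 6 without pkl-1 2. The plain ratio of 88 called regions changed sign in 11 with TMM factors, and in AT4G01985 without pkl-1 2 (-0.02).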

Other observations

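Regions without a partner under the pairing rule are described without a test. Some of them can still overlap a region of the other table. Both tables hold the same WT library. A region absent from the other table is therefore listed through the reads of its own pkl-1 library, and a ratio above 0 there is largely set by that choice. The 270 regions of the first table without a partner had a median log2 ratio of 0.56 in pkl-1 over WT, and 93.0% lay above 0. The 141 of the second had a median of 0.55, and 67.4% lay above 0 while 46 lay below it. They were short, with a median of 1200 bp in both tables, and held 0.629% and 0.334% of the pkl-1 reads, against 0.453% and 0.349% of the WT reads. One of them lies before the first annotated gene of chromosome 1, at chr1:201-1400, with 380 reads in pkl-1 1, against 38 in WT (log2 ratio 2.79). The table of the second pie1-5 library has a region there too, with 406 reads in pie1-5, against 52 in WT (2.91).

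The 76 paired regions more than 1 above the median had a median length of 1200 bp, 33 covered no gene, and 53 overlapped a paired H2A.Z region. Their median density was 21.9 and 21.5 RPM per kb in pkl-1, against 15.1 in WT. They were chosen for a high ratio over the WT library that the pie1-5 tables share, so a low WT count alone raises those ratios too, and nothing is read from them. For the second pie1-5 library 74 of 74 were above WT (median 0.86), beside 1555 of 5335 for all regions (-0.20); for the first library 31 of 61 were, beside 779 of 5321.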
